A study of Mus musculus with 4 samples.

Results

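Genes for the enzymes and transport proteins with which osteoclasts dissolve bone were followed in osteoclast progenitors of mice that were wild type or floxed for Ptip. The members were the 10 listed genes Acp5, Car1, Car2, Ctsk, Mmp14, Clcn7, Ostm1, Tcirg1, Plekhm1 and Snx10, found by Ensembl identifier among the 18276 genes of the deposited table, and all 10 had a row. Poly(A) RNA came from B220-, CD3- and Mac-1-negative, CD115-positive cells sorted from fresh bone marrow of mice on a B6;129 background. In 2 libraries the mice were Ptip flox/flox with Mx-1Cre (called Ptip_KO), and in 2 libraries they were wild type for Ptip with the same Mx-1Cre (called WT), so that both groups carried the Cre. Mx-1Cre is driven by an interferon-inducible promoter and is not specific to osteoclast progenitors. Age and any inducing treatment are not given in the sources used here. The series text calls the replicates independent without tying them to separate animals, so the p-values below measure the spread between these samples. That spread may be technical within Ptip_KO, while the WT libraries differed in sex-linked genes and so were not repeats of the same sample.

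An osteoclast seals itself onto bone and acidifies the space beneath it. Carbonic anhydrase 2 (Car2) turns carbon dioxide and water into protons and bicarbonate, a vacuolar proton pump holding the Tcirg1 subunit moves the protons into the space, and the chloride-proton exchanger Clcn7 with its partner Ostm1 balances the charge. The acid dissolves mineral, and cathepsin K (Ctsk) and the membrane metalloprotease Mmp14 cut the matrix, while Acp5, the tartrate-resistant acid phosphatase, is the classical histochemical marker of the cell. Plekhm1, an adaptor of late endosomes, and the sorting nexin Snx10 act in the vesicle traffic that builds the ruffled border. Inherited loss of Tcirg1, Clcn7, Ostm1, Plekhm1, Snx10 or Car2 function causes osteopetrosis, a disease of dense bone. Car1 is the carbonic anhydrase of mature red cells and is included as a contrast for Car2, which red cells also use.

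RefSeq promoter windows (GRCm38.p6) were found for 8 of the 10 members. Car1 and Car2 had no entry. The 250 bases before the start are shown for Acp5, a member that fell, and for Clcn7, a lysosomal member that did not pass the test. Both are written 5′ to 3′, with motif matches in capitals. Acp5 is the window of its first of 3 starts, on the minus strand at chr9:22135747-22135996, and Clcn7 that of its first of 2 starts, on the plus strand at chr17:25133141-25133390.
Acp5: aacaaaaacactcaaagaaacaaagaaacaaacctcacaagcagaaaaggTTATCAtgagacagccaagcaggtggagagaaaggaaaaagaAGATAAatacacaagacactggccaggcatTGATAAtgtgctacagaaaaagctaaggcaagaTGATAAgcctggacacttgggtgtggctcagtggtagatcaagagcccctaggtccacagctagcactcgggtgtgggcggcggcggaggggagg
Clcn7: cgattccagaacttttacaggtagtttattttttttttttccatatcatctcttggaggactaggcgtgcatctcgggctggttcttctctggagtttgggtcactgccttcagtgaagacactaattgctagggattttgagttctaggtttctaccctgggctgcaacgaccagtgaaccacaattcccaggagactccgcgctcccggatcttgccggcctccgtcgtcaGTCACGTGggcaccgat
The capitals in Acp5 mark 4 matches to GATA motifs, searched on both strands as AGATAA or the letters TGATAA or the letters AGATAG or the letters TGATAG. Counted from the start, they begin at −200, −158, −128 and −95. At least 1 such match was present in 26.5% of the 32851 mouse windows of this length, and at least 4 in 0.21%. The count of 4 is that of this Acp5 window and was looked up for GATA only, so the 0.21% is a description and not a test. A GATA match was present in 4 of the 15 windows of the 8 members (1 each of Acp5, Ctsk, Clcn7 and Tcirg1), a share near that of all windows. The 2 other Acp5 windows held none of the motifs searched. The capitals in Clcn7 mark a CLEAR core, the element of lysosomal genes searched as CACGTGAC on both strands and beginning at −17. It was present in 1.85% of windows and overlaps the E-box CACGTG, present in 6.02%. Clcn7 was the only one of the 8 members with a CLEAR core. PU.1 letters (GAGGAA, in 23.3% of windows) were found in 3 of the 15 member windows (Ctsk, Tcirg1 and Snx10), also near the share of all windows, and AP-1 letters (TGANTCA, 6.75%) for Snx10. A match describes the letters in the window, and which start these cells used was not measured.

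Values are reads per 1000000 of the authors' effective library size (CPM), and differences are tested with limma on log2(CPM + 1) with Benjamini-Hochberg adjustment over all 12357 genes that reached 1 CPM in at least 2 libraries. The table held between 67592972 and 77773478 reads per library. Paxip1, the gene that encodes PTIP, had 5.10 and 3.73 CPM in the Ptip_KO libraries against 106 and 103 CPM in WT. WT replicate 2 stood apart in having 298 CPM of Xist and 0.101 CPM of the Y-linked Ddx3y, against at most 0.0814 CPM of Xist and at least 69.1 CPM of Ddx3y in the other 3 libraries. By these genes WT replicate 2 had a female pattern, and WT replicate 1 and both Ptip_KO libraries a male one, so sex was not balanced between the groups. The part of sex in the values of the members was not tested, and values without WT replicate 2 are given below. Among the genes of the sort, Csf1r, which encodes CD115, was at 606 to 825 CPM and Itgam, part of Mac-1, at 35.1 to 42.1 CPM, and the RANK gene Tnfrsf11a was at 4.86 to 8.19 CPM. Of genes known from mature osteoclasts, some were low: the protease Ctsk, the fusion gene Ocstamp and the osteoclast pump subunit Atp6v0d2 had at most 0.393, 0.228 and 0.385 CPM in any library. Mmp9 and the integrin gene Itgb3, which osteoclasts share with other blood cells, were at 34.8 to 287 CPM and 47.0 to 60.7 CPM.

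Of the 8 members that passed the expression filter, Car2 and Acp5 fell in Ptip_KO and none rose by limma. Over all tested genes, limma called 6.29% (3.86% lower and 2.43% higher). None of the members rose in edgeR, DESeq2 or limma-voom, or at an unadjusted limma p under 0.05. In the lower direction edgeR called 2 of the 8, where it called 3.37% of all tested genes, and DESeq2 called 3, where it called 9.11%. Car1 had the second most negative log2 fold change of the members and missed the threshold. The 5 genes of the pump, the chloride exchanger and vesicle traffic had log2 fold changes between −0.17 and 0.18. The median of the 8 tested members was −0.15, beside 0.0032 over all tested genes. The groups did not overlap for 4 of the 8 with the lower values in Ptip_KO, where 27.3% of all tested genes did so, and for 2 with the higher values in Ptip_KO, where 27.7% did so.

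**Figure D1:**
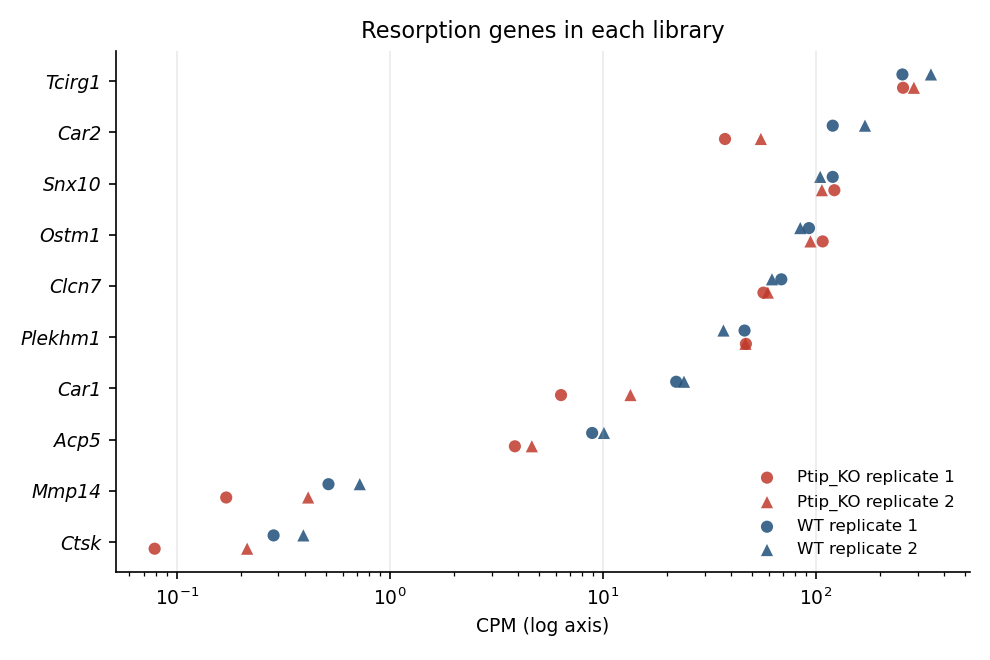
CPM of the 10 resorption genes (log axis) in each of the 4 libraries, Ptip_KO in red and WT in blue, circles for replicate 1 and triangles for replicate 2. Car2, Car1 and Acp5 lie lower in both Ptip_KO libraries than in both WT libraries, Tcirg1 and Snx10 overlap between groups, and Ctsk and Mmp14 lie under 1 CPM in every library.

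Car2 was at 37.4 and 55.1 CPM in the Ptip_KO libraries against 119.7 and 169.6 CPM in WT. Every Ptip_KO value was lower than every WT value, and the lowest WT value was WT replicate 1. The mean fell from 145 ± 35.3 CPM to 46.2 ± 12.5 CPM (SD, n = 2 each), with a log2 fold change of −1.63 (standard error 0.233, 95% interval −2.21 to −1.05) and a limma adjusted p of 0.0218. Of all tested genes, 1.24% had a more negative log2 fold change than Car2. Car2 (ENSMUSG00000027562.12) lies on chromosome 3 at 14886273 to 14900770 on the plus strand (mm10), with no overlapping gene in the annotation used. When the libraries were rescaled to a common sum, the log2 fold change of Car2 was −1.58 with a limma adjusted p of 0.0504.

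Car1 was at 6.36 and 13.5 CPM in the Ptip_KO libraries against 22.1 and 24.0 CPM in WT. The groups did not overlap, and the Ptip_KO libraries differed from each other more than the WT libraries did. The WT mean was 23.0 ± 1.37 CPM and the Ptip_KO mean 9.91 ± 5.02 CPM (SD, n = 2 each), the log2 fold change was −1.22 (standard error 0.308, 95% interval −1.98 to −0.46), and the limma adjusted p was 0.0807. Car1 passed the threshold by DESeq2 (adjusted p = 0.00509). Its limma log2 fold change was −0.73 without Ptip_KO replicate 1 and −1.71 without Ptip_KO replicate 2. It was −1.28 without WT replicate 1 and −1.16 without WT replicate 2. Such fits leave 1 library in a group and take its spread from the other group, so only effect sizes are given. Car1 (ENSMUSG00000027556.15) lies on chromosome 3 at 14766216 to 14808368 on the minus strand. The processed pseudogene Gm16399 lies inside it on the same strand, and Gm5843 matches a Car1 transcript at 97.959% of aligned positions, so that the counts of Car1 are uncertain to that extent.

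Comparing Car1 with Car2 inside each library asks whether both enzymes moved alike. Car2 exceeded Car1 by 5.88-fold and 4.09-fold in the Ptip_KO libraries and by 5.43-fold and 7.07-fold in the WT libraries, in CPM. Per kilobase of merged exons, the same ratios were 3.03, 2.11, 2.80 and 3.64. On the log2(CPM + 1) scale, the Car1 to Car2 difference was −2.38 and −1.96 in Ptip_KO and −2.39 and −2.77 in WT, higher in Ptip_KO by 0.41. The exact permutation test gave p = 0.333 (two-sided), the smallest that 2 against 2 samples allow, and an adjusted p of 0.5 over 3 such comparisons. With a pseudocount of 0.25 the groups overlapped (0.36, exact p = 0.667).

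Red cell markers were read beside both carbonic anhydrases. Of 22 tested red cell markers, 16 fell and none rose by limma (edgeR, DESeq2 and an unadjusted limma p under 0.05 also gave 0). Over all tested genes limma called 3.86% lower. The markers had a median log2 fold change of −1.62, with quartiles of −1.74 and −1.42. Their summed level was 1046 to 1390 CPM in the Ptip_KO libraries against 2574 to 5481 CPM in WT, and none of the 22 was at 0 in all libraries. The anion exchanger Slc4a1, one of those that fell, averaged 101 CPM in Ptip_KO libraries and 290 CPM in WT. The most abundant marker, the globin Hbb-bs, had 394 and 548 CPM in the Ptip_KO libraries against 966 and 2853 CPM in WT and did not pass (limma adjusted p = 0.0927). Its groups did not overlap, and its WT mean rested largely on WT replicate 2. The related globin Hbb-bt had 12.3 and 61.8 CPM in the Ptip_KO libraries against 34.3 and 44.8 CPM in WT, so that its groups overlapped (limma adjusted p = 0.726). Globin copies resemble each other, and how the counting divided their reads is not given in the sources used here. Fewer red cell markers passed in edgeR (7), in limma-voom (7), with the libraries set to equal sums (6), with median-of-ratios scaling (9) and with a robust prior (8). All 22 log2 fold changes were negative in the limma fit. The part of red cell RNA in the fall of Car2 and the lower values of Car1 was not tested. In bulk RNA, fewer cells of a type and less RNA per cell cannot be told apart.

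Car2 was also set against the median red cell marker of its own library. It lay above that median by 1.60 and 1.47 on the log2 scale in Ptip_KO and by 1.59 and 1.63 in WT, a difference of −0.074 between the groups (exact permutation p = 0.667, two-sided, adjusted p = 0.667 over 3 comparisons). The groups overlapped, and with a pseudocount of 5 they did not (−0.20, exact p = 0.333). Car1 lay below the median, at −0.78 and −0.48 in Ptip_KO and −0.80 and −1.14 in WT, a difference of 0.34 (exact permutation p = 0.333, adjusted p = 0.5). With 2 samples a group, these tests cannot reach the threshold, and a p that misses it does not show that values were equal.

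**Figure D2:**
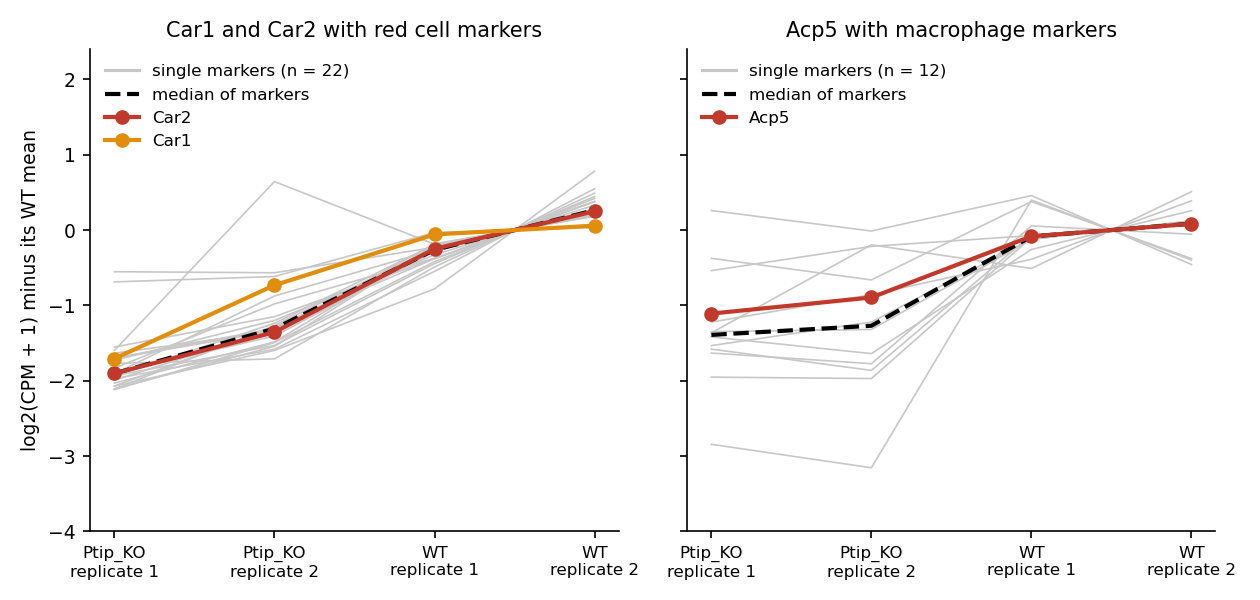
log2(CPM + 1) of each gene minus its own WT mean, in the 4 libraries. Grey lines join the values of 1 marker, the dashed line is the median marker, and coloured lines are Car2 and Car1 (left, with 22 red cell markers) and Acp5 (right, with 12 macrophage markers). The Car2 line lies close to the red cell median in all 4 libraries, while the Car1 line lies above it in both Ptip_KO libraries, further in replicate 2 than in replicate 1.

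Among all tested genes, the 3 whose centred profile over the 4 libraries lay nearest to Car2 were Epb42, Btnl10 and Sox6, at Euclidean distances of 0.0653, 0.0660 and 0.0722 on the log2(CPM + 1) scale. Epb42 encodes a protein of the red cell membrane skeleton, and Sox6 a transcription factor of red cell maturation. Epb42 had 10.3 and 14.9 CPM in the Ptip_KO libraries against 33.6 and 50.2 CPM in WT. For Car1, the nearest were Zfpm1, a cofactor of GATA factors, the phospholipid transporter gene Abcb4 and the immunoglobulin segment Ighv3-6, at the larger distances of 0.256, 0.263 and 0.285. Car1 ranked 130th by nearness to Car2, at 0.577. These distances rest on 4 libraries that share their depth and scaling, and describe likeness only.

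No carbonic anhydrase other than Car2 fell by limma, and none other than Car2 and Car1 was lower in edgeR, in DESeq2 or at an unadjusted limma p under 0.05. Of the 16 genes of the family, 10 had a row and 7 were tested: 1 fell (Car2), 1 rose (Car3) and the median log2 fold change was 0.15. Limma called 3.86% of all tested genes lower and 2.43% higher. Car3, a cytosolic enzyme known from muscle, liver and fat, was at 2.81 and 3.17 CPM in the Ptip_KO libraries against 0.760 and 1.14 CPM in WT. Both Ptip_KO values were above both WT values, and Car3 rose by 1.04 on the log2 scale (standard error 0.181, limma adjusted p = 0.0340). The call was lost by edgeR (0.0567), by limma-voom (0.0574), with a common sum (0.0538), without Ptip_KO replicate 1 (0.129) and without Ptip_KO replicate 2 (0.178). The mitochondrial Car5b, the membrane enzymes Car9 and Car12, and the cytosolic Car13 had log2 fold changes of 0.34, 0.33, 0.038 and 0.15, with limma adjusted p between 0.310 and 0.933. Car13, Car1, Car3 and Car2 lie side by side on chromosome 3, where Car3 (14863512 to 14872523) sits between Car1 and Car2. Car2 made up 58.2% and 61.4% of the summed CPM of the 10 family genes in Ptip_KO and 77.0% and 80.0% in WT, while that sum was 64.2 and 89.7 CPM in the Ptip_KO libraries against 155 and 212 CPM in WT.

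Acp5 was at 3.86 and 4.64 CPM in Ptip_KO, from 294 and 325 reads, and at 8.90 and 10.1 CPM in WT, from 656 and 797 reads. The values within each group lay close together and the groups did not overlap. Acp5 fell by 1.002 on the log2 scale (standard error 0.146, 95% interval −1.36 to −0.64), with a limma adjusted p of 0.0228. The call was lost without Ptip_KO replicate 1 (log2 fold change −0.90, adjusted p = 0.0769) and with a common sum (−0.96, adjusted p = 0.0505). Acp5 (ENSMUSG00000001348.15) lies on chromosome 9 at 22126727 to 22135711 on the minus strand. The noncoding gene 6530413G14Rik overlaps all 8985 bases of it on the opposite strand, and the sources used here do not say whether counting used strand. The nearest profiles to Acp5 were those of Lrba, a gene of vesicle traffic, the immunoglobulin segment Igkv9-120 and the small GTPase gene Mras, at distances of 0.0652, 0.0956 and 0.104. Igkv9-120 had only 0.447 and 0.799 CPM in the Ptip_KO libraries and passed the filter only through WT, at 1.94 and 2.26 CPM. At such low values the distance depends on the 1 added to CPM. Car1 ranked 582nd and Car2 1091st by nearness to Acp5, at distances of 0.581 and 0.710.

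Macrophages also express Acp5, and macrophage markers were lower in Ptip_KO as well. Of 12 tested macrophage markers, 7 fell and none rose by limma (edgeR, DESeq2 and an unadjusted limma p under 0.05 also gave 0), where limma called 3.86% of all tested genes lower. The median log2 fold change of the markers was −1.36. The count that fell was 4 with a filter at 5 CPM, and without WT replicate 1 it was 6, with Cd68 called higher. The summed level was 220 to 252 CPM in the Ptip_KO libraries against 282 to 418 CPM in WT, most of it Cd68 (121 to 229 CPM in the 4 libraries), which had a log2 fold change of 0.12. The F4/80 gene Adgre1, at 8.67 and 6.79 CPM in the Ptip_KO libraries against 90.5 and 51.7 CPM in WT, was among those that fell. So was the complement gene C1qa, at 0.158 and 0.143 CPM in the Ptip_KO libraries against 3.19 and 3.79 CPM in WT. C1qa, C1qb and C1qc were under 1 CPM in both Ptip_KO libraries and passed the filter only through WT. Their lower values in Ptip_KO were thus fixed by the filter, and their calls lend no weight to the count. None of the 16 macrophage markers with a row was at 0 in all libraries. The part of macrophage RNA in the fall of Acp5 was not tested.

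Ctsk and Mmp14, the matrix-cutting members, were under the filter. Ctsk (ENSMUSG00000028111.4), on the plus strand of chromosome 3 at 95499256 to 95509362, had 0.0788 and 0.214 CPM in the Ptip_KO libraries against 0.285 and 0.393 CPM in WT, which were 6, 15, 21 and 31 reads. Mmp14 (ENSMUSG00000000957.11), on the plus strand of chromosome 14 at 54431612 to 54445364, had 0.171 and 0.414 CPM in the Ptip_KO libraries against 0.516 and 0.723 CPM in WT, which were 13, 29, 38 and 57 reads. For both genes the Ptip_KO values were the 2 lowest. With no filter, edgeR gave log2 fold changes of −1.21 for Ctsk (adjusted p = 0.365) and −1.09 for Mmp14 (adjusted p = 0.332).

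The acid transport members were well expressed, and none passed the test. Tcirg1 (ENSMUSG00000001750.15), on the minus strand of chromosome 19 at 3896050 to 3907133, was at 256 and 288 CPM in the Ptip_KO libraries against 254 and 346 CPM in WT. The groups overlapped, and the log2 fold change was −0.13 (95% interval −0.53 to 0.28, limma adjusted p = 0.690). Clcn7 (ENSMUSG00000036636.9), on the plus strand of chromosome 17 at 25133391 to 25162104, was at 56.6 and 59.4 CPM in the Ptip_KO libraries against 68.7 and 62.1 CPM in WT (log2 fold change −0.17, 95% interval −0.40 to 0.064, limma adjusted p = 0.346). Its partner Ostm1 (ENSMUSG00000038280.12), on the plus strand of chromosome 10 at 42583822 to 42702459, was at 107 and 94.1 CPM in the Ptip_KO libraries against 92.6 and 84.3 CPM in WT (0.18, −0.076 to 0.44, limma adjusted p = 0.357). For each partner alone, the groups lay next to each other without overlap, lower in Ptip_KO for Clcn7 and higher for Ostm1. The Clcn7 to Ostm1 ratio of CPM was 0.527 and 0.631 in Ptip_KO and 0.742 and 0.737 in WT, given here as a description. Gm15200 overlaps 483 bases of Ostm1 on the opposite strand and matches a transcript of it at 100% of aligned positions, so reads of the 2 cannot be told apart if counting ignored strand.

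Neither of the vesicle traffic members passed the test. Plekhm1 (ENSMUSG00000034247.9), on the minus strand of chromosome 11 at 103364275 to 103412687, was at 46.9 and 46.6 CPM in the Ptip_KO libraries against 46.2 and 36.8 CPM in WT. The groups did not overlap, but WT replicate 1 lay close to both Ptip_KO libraries and only WT replicate 2 stood clearly below. The log2 fold change was 0.18 (95% interval −0.14 to 0.49, limma adjusted p = 0.460). The antisense gene Arhgap27os1 overlaps 377 bases of Plekhm1 and had 0.204 to 0.512 CPM. Snx10 (ENSMUSG00000038301.15), on the plus strand of chromosome 6 at 51523901 to 51590679, was at 122 and 106 CPM in the Ptip_KO libraries against 119.7 and 105 CPM in WT. The groups overlapped almost fully, with a log2 fold change of 0.026 (95% interval −0.26 to 0.31, limma adjusted p = 0.923). The intervals of these 5 genes leave out a 2-fold change in either direction, which is 1 on the log2 scale.

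**Figure D3:**
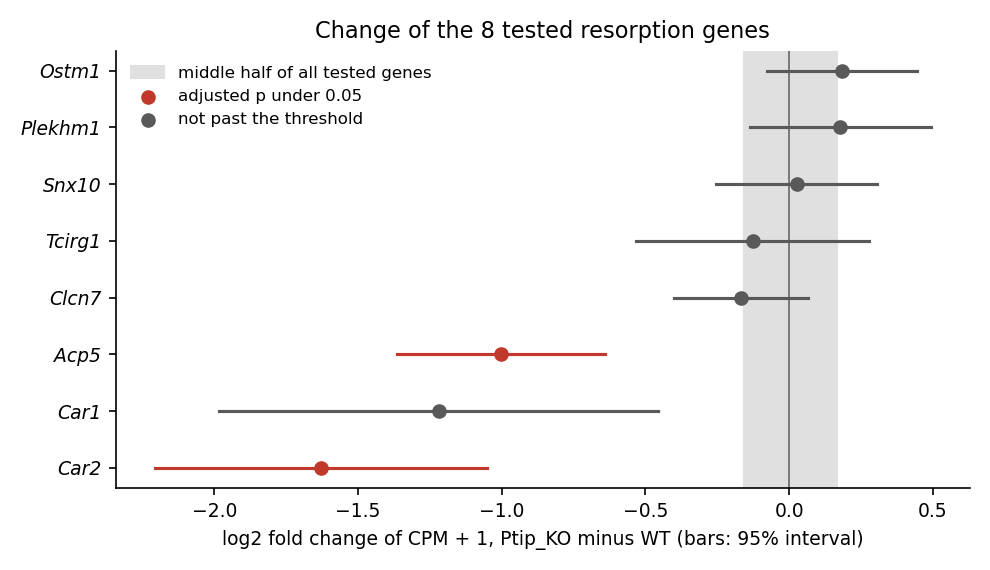
log2 fold change (Ptip_KO minus WT, on log2(CPM + 1)) of the 8 tested resorption genes with 95% limma intervals, red where the adjusted p was under 0.05; the grey band is the interquartile range of all 12357 tested genes. Car2 and Acp5 are red, the Car1 interval of −1.98 to −0.46 lies below 0 although its adjusted p was 0.0807, and the other 5 intervals span 0.

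Levels of different members were compared per kilobase of merged exons. In WT, Tcirg1 (55.2 and 75.1 CPM per kilobase) and Car2 (49.4 and 70.0) were the highest and overlapped. Car1 followed at 17.7 and 19.2. Clcn7, Ostm1 and Snx10 overlapped between 11.2 and 13.0, and Plekhm1 (6.16 and 7.74) and Acp5 (4.38 and 4.98) lay below them. Ctsk, at 0.188 and 0.260, and Mmp14, at 0.0865 and 0.121 CPM per kilobase, were the lowest. In Ptip_KO, Tcirg1 stayed highest at 55.6 and 62.5, while Car2 was at 15.4 and 22.7, above the 13.1 and 14.9 of Ostm1. Car1, at 5.09 and 10.8, overlapped Plekhm1 at 7.81 and 7.85, and Acp5 was at 1.90 and 2.29 CPM per kilobase.

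Other genes of the resorption machinery gave the background of the pathway. Of 16 tested proton pump subunits, 1 fell and none rose by limma (edgeR, DESeq2 and an unadjusted limma p under 0.05 also gave 0), with a median log2 fold change of −0.10. Over all tested genes limma called 3.86% lower, and 1 of 16 is near that share. The one that fell was Atp6v0a1, which encodes another form of the membrane subunit that Tcirg1 encodes. It was at 27.1 and 22.8 CPM in the Ptip_KO libraries against 40.8 and 38.4 CPM in WT, with a log2 fold change of −0.65 (standard error 0.117, limma adjusted p = 0.0369, and 0.159 without Ptip_KO replicate 2). The groups did not overlap for Atp6v0a1, while they did for Tcirg1. Whether the 2 forms differ in their change was not tested. The subunits with the next smallest p, Atp6v1g1, Atp6v1e1, Atp6v1c1 and Atp6v1f, had log2 fold changes of −0.23, −0.17, −0.15 and 0.15 and limma adjusted p between 0.308 and 0.429.

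Of 22 tested proteases, adhesion, traffic and lysosomal genes of resorption, 1 rose and none fell by limma, where 2.43% and 3.86% of all tested genes did, with a median log2 fold change of −0.065. At an unadjusted limma p under 0.05, 3 were lower (Rab27a, Mmp9 and Ctsd). By edgeR 1 was lower (Rab27a), by DESeq2 2 were (Rab27a and Ctsd), and without WT replicate 2 limma called 3 lower (Rab27a, Mmp9 and Tfeb). In that fit limma called 1015 of all genes lower, against 477 with all 4 libraries. The one that rose was Ctsl, a lysosomal cysteine protease related to cathepsin K, at 36.9 and 35.9 CPM in the Ptip_KO libraries against 26.1 in both WT libraries (log2 fold change 0.46, standard error 0.0897, limma adjusted p = 0.0440). Ctsl lost the call without Ptip_KO replicate 1 (adjusted p = 0.247) and without Ptip_KO replicate 2 (0.204). The gelatinase Mmp9 varied widely, with 135 and 34.8 CPM in the Ptip_KO libraries against 179 and 287 CPM in WT. Its log2 fold change of −1.71 had a standard error of 0.611, and its limma adjusted p of 0.169 moved to 0.00243 when Ptip_KO replicate 1 was left out, and to 0.00231 and 0.0397 when WT replicate 1 or 2 was. Leaving out Ptip_KO replicate 2, the lowest library for Mmp9, moved the log2 fold change to −0.74 (limma adjusted p = 0.240). Rab27a, a small GTPase of vesicle transport, was at 214 and 208 CPM in the Ptip_KO libraries against 301 and 267 CPM in WT, with a limma adjusted p of 0.0643, and passed by edgeR (0.0497) and DESeq2 (0.000107). It also passed in limma with median-of-ratios scaling (0.0461) and with a common sum (0.0451). The lysosomal protease Ctsd and the lysosomal acid phosphatase Acp2 had log2 fold changes of −0.26 and 0.19, with limma adjusted p of 0.176 and 0.279.

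**Figure D4:**
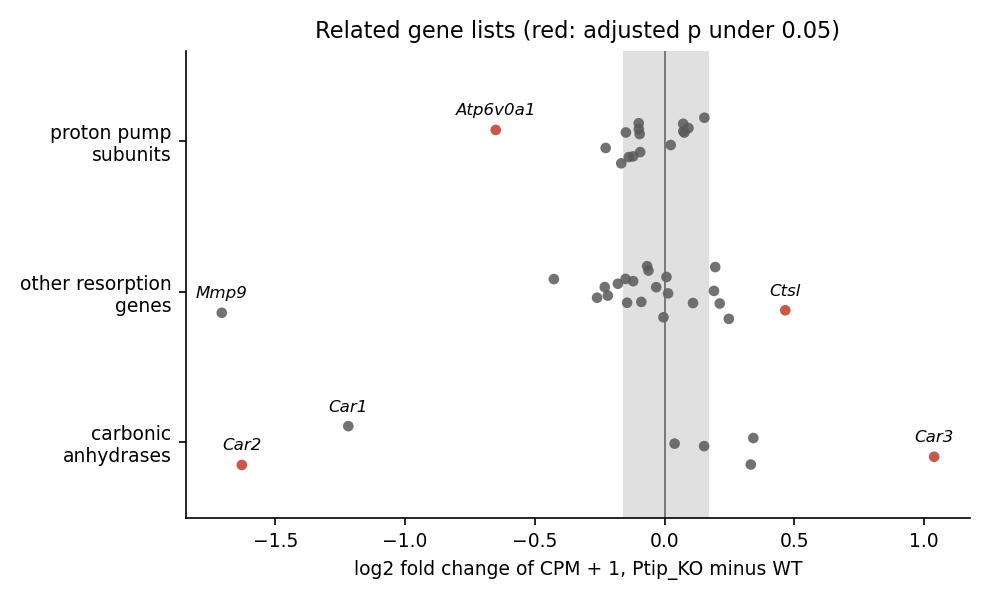
log2 fold change (Ptip_KO minus WT, on log2(CPM + 1)) of every tested gene in 3 related lists, 1 point per gene, spread vertically only for legibility, with the interquartile range of all tested genes in grey. Most pump subunits lie near 0 with Atp6v0a1 at −0.65, and the carbonic anhydrases extend from −1.63 for Car2 to 1.04 for Car3.

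Marker lists of other marrow cells were read in the same fit, among them B and T cells and neutrophils, which a B220-, CD3- and Mac-1-negative sort is meant to remove. By limma, 0 of 8 basophil and mast cell markers, 0 of 3 megakaryocyte markers, 0 of 9 neutrophil markers and 0 of 4 bone and stromal markers passed. In edgeR the 4 counts were 0 as well, and in DESeq2 and at an unadjusted limma p under 0.05 they were 0 except for 3 neutrophil markers that were lower (S100a8, S100a9 and Ly6g), which limma also called lower without WT replicate 2. Of 2 tested B and T cell markers, Cd79b was called higher by limma (mean 30.9 CPM in WT and 50.7 CPM in Ptip_KO) and not by edgeR. Of 7 sort and progenitor genes, the receptor tyrosine kinases Kit and Flt3 fell and none rose by limma, where 3.86% and 2.43% of all tested genes did. At an unadjusted limma p under 0.05, 2 were higher (Csf1r and Cd34), and by DESeq2 1 was. Csf1r and Cd34 had log2 fold changes of 0.33 and 0.36 (limma adjusted p = 0.149 and 0.184), and their groups did not overlap. Kit, which early red cell precursors carry as well, was at 14.4 and 16.1 CPM in the Ptip_KO libraries against 49.5 and 73.1 CPM in WT. Neutrophil markers were the most abundant, with summed levels of 10434 to 11257 CPM in the Ptip_KO libraries against 9202 to 13440 CPM in WT. The myeloperoxidase gene Mpo, which myeloid progenitors express as well, made up most of this sum, at 5885 to 8481 CPM. S100a8 had 287 and 183 CPM in the Ptip_KO libraries against 503 and 884 CPM in WT, and S100a9 had 383 and 216 CPM against 714 and 1242 CPM, so that the groups did not overlap for either gene (limma adjusted p = 0.0521 and 0.0509). Basophil and mast cell markers summed to 171 to 278 CPM in the Ptip_KO libraries against 162 to 339 CPM in WT, and megakaryocyte markers to 10.3 to 19.4 CPM and 14.0 to 35.3 CPM. The part of these cells in the values of the members was not tested.

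Leaving out WT replicate 2, the library that stood apart, the limma log2 fold changes were −0.92 for Acp5, −1.38 for Car2 and −1.16 for Car1. WT replicate 1 was then the only WT library. In that fit the lone library is assumed to vary like the Ptip_KO group, so p-values of that fit are not given here. Tcirg1 turned from −0.13 to 0.094 and Snx10 from 0.026 to −0.071, both without passing the threshold.

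**Figure D5:**
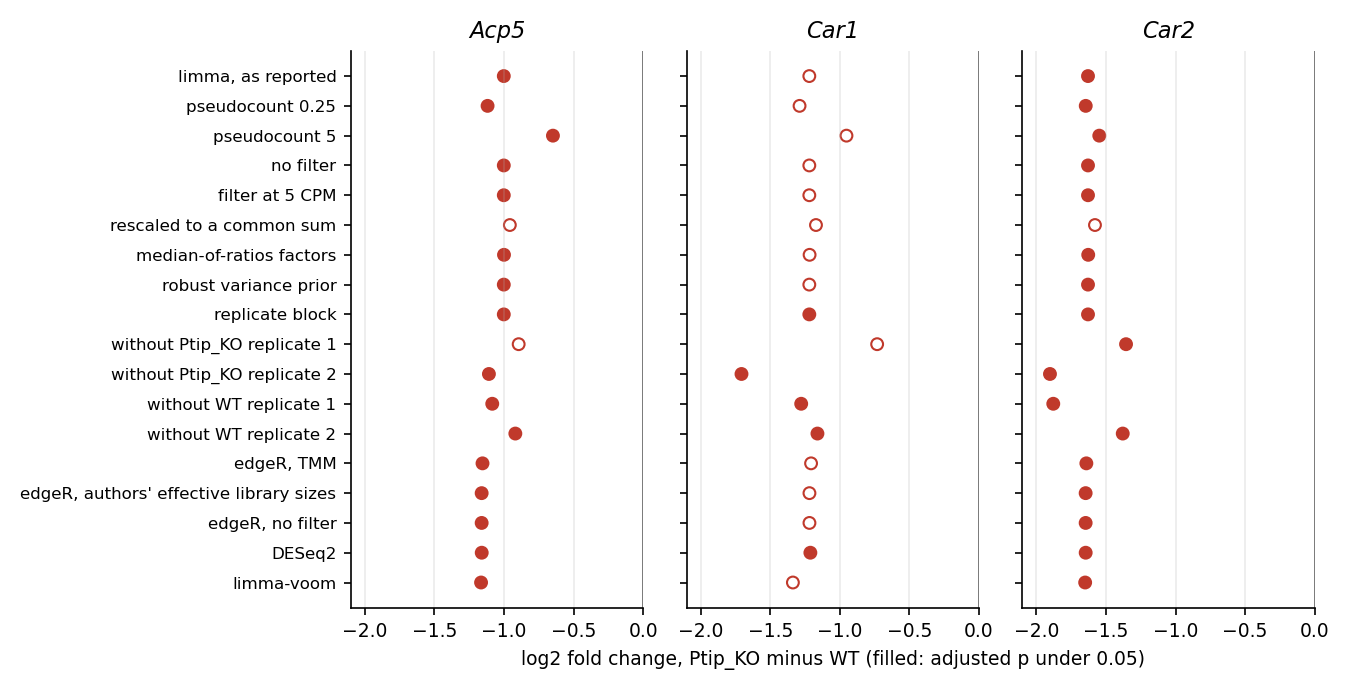
log2 fold change (Ptip_KO minus WT) of Acp5, Car1 and Car2 in the reported fit and under 17 other settings, filled where the adjusted p was under 0.05. All values are negative, Acp5 loses the threshold in 2 settings and Car2 in 1, and Car1 passes it in 5.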

How the data were processed

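The 4 libraries were prepared from poly(A) RNA with a TruSeq Stranded mRNA kit, as the labels' protocols state. TopHat2 2.0.10, HTSeq 0.6.0, edgeR 3.8.6 and the build mm10 are named in the submitters' processing notes, and whether counting used strand is not given in the sources used here. The deposited values are a normalized signal: CPM that the authors scaled to effective library sizes, as the name of the deposited table says. Whole reads were recovered from them: 100% of 18276 values per library were whole multiples of the smallest, within 0.01 read. Columns were matched to samples by description, and WT replicate 2, numbered as in its title, is the column WT_3.

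The 12357 genes reaching 1 CPM in 2 or more libraries entered limma 3.58.1 (R 4.3.3). The model used log2(CPM + 1), a trend in the variance prior and genotype as its single term, two-sided, with Benjamini-Hochberg adjustment at 0.05. Single-library contrasts used exact permutation (SciPy 1.17.1). Fold changes on this scale understate changes of low genes. Recovered reads were tested with edgeR 4.0.16 (quasi-likelihood), DESeq2 1.42.0 and limma-voom. Other settings were the pseudocount, the filter, the scaling, a robust prior, a replicate block and each library left out. Members and lists were chosen with earlier results of these data known. Named genes were all members, list genes past the threshold and up to 4 others per list by p, every tested carbonic anhydrase, abundant markers, and the 3 nearest profiles to Acp5, Car1 and Car2. The values of Hbb-bt, C1qa, Adgre1, Itgb3, Kit, Ocstamp, Atp6v0d2, Tfeb and neutrophil genes were picked after they were seen. Positions and merged exon lengths are from GENCODE M21, and near-identical transcripts (95% identity over at least 50% of the shorter and 200 bases) from BLAST 2.17.0. The limma script was tested on simulated data.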

Additional observations from a re-analysis of the deposited data

How the results depend on the processing

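Of the 17 alternatives, Acp5 kept its direction in all and its call in 15, and Car2 in all and 16. Car1 kept its direction in all (−1.71 to −0.73) and passed in 5, among them fits that left 1 library in a group. Clcn7, Ostm1 and Plekhm1 kept direction and stayed short of the threshold in all 17. With each library left out, Tcirg1 ranged from −0.35 to 0.094 and was reversed without WT replicate 2 (0.094). Snx10 ranged from −0.071 to 0.12 and was reversed without Ptip_KO replicate 1 (−0.071) and without WT replicate 2 (−0.071). The cause was not tested. The count of members that fell, 2, became 0 with a common sum, where Acp5 and Car2 had adjusted p of 0.0505 and 0.0504, and ranged from 1 to 3 with each library left out.

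Over all genes, 300 rose and 477 fell. DESeq2 gave 780 and 1126, and the replicate block 691 and 1030, while leaving out each library gave 92 to 837 and 299 to 1015. The labels do not say that replicate numbers pair the libraries. The numbers are those of the sample titles, and WT replicate 2 is the column WT_3 of the table, so the title and the column disagree on its number. The deviations of libraries with the same title number from their group means correlated with r = 0.33 across genes. With 2 libraries a group the deviations mirror each other, so both pairs share this r and the opposite pairing has it with the other sign. It therefore cannot show that the libraries are paired. Under the block, Car1 passed (limma adjusted p = 0.0397), as did Rab27a (0.0257), and 3 members fell. With 1 library left out, the lone library of its group is assumed to vary like the other group. The settings for the related lists and for Car3, Ctsl, Atp6v0a1, Mmp9 and Rab27a were added after the data were seen. Ctsk and Mmp14 had the lowest depth of the members, 6 to 57 reads per library, and what set their p was not tested.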
